A study of Mus musculus with 4 samples.

Results

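The 10 genes that carry iron into the cell, move it inside the cell, store it, send it out or free it from haem were followed in mouse leukaemia before and after loss of an oncogene. They were picked by name for their roles in iron handling, with earlier results of these data known: Tfrc, Tfr2, Slc11a2 and Steap3 (uptake), Slc25a37 (mitochondrial import), Fth1 and Ftl1 (storage), Slc40a1 (export), Hmox1 (haem breakdown) and Ireb2 (regulation). All 10 were found among the 23235 genes of the deposited tables, 9 under these symbols and Tfr2 under its older symbol, Trfr2. All 10 also passed the filter on low values, a level of at least 1 FPKM (fragments per kilobase of transcript scaled to mapped reads) in at least 1 library.

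The material is acute myeloid leukaemia with an NRASG12V transgene and an Mll-AF9 fusion, grown from cells injected into SCID/Beige mice. These hosts lack normal lymphocytes but keep red cell precursors and macrophages of their own, whose RNA cannot be told apart here from that of the leukaemia. The mice were left for 20 days, until white cell counts exceeded 100000 per microlitre. The on library holds leukaemia with NRASG12V expressed. The off libraries hold the same genotype at 48 h, 72 h and 96 h of doxycycline, given by injection into the abdomen and then by drinking water, which stops NRASG12V expression. Each group is 1 library. All groups carry Mll-AF9, no library is labelled as doxycycline given with NRASG12V still expressed, and the drug, elapsed time and the switch cannot be told apart. The labels give neither the organ sampled, nor the number of mice behind a library, nor the promoter of the transgene.

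Cells take up iron by binding transferrin at the transferrin receptor, drawing the complex into endosomes, reducing the freed iron and passing it to the cytosol through a metal transporter. Iron then goes to mitochondria for haem and iron-sulphur clusters, into the ferritin shell for storage, or out of the cell through ferroportin. Iron regulatory proteins bind hairpins in messenger RNAs, called iron-responsive elements, when iron is short: at the start of a transcript they block translation, and near its end they protect the transcript from decay. Erythroid precursors take up more iron than other blood cells to make haemoglobin, while macrophages break down old red cells, free the iron with haem oxygenase and return it through ferroportin.

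The hairpins are shown because they are the sequence feature by which uptake, storage and export transcripts are tied to each other. The coding transcripts of the 10 genes in GENCODE M21 (GRCm38) were searched in both untranslated regions for a C, 5 bases, the loop CAGTGN and 5 bases, with all 5 pairs of the stem formed, G with U allowed. A match was found in 4 of the 10 genes: once each at the start of Fth1, Ftl1 and Slc40a1, and 4 times near the end of Tfrc. Over 21901 coding genes, searched in the longest coding transcript, 0.09% held the pattern in the leading and 0.54% in the trailing untranslated region. The sequences run 5′ to 3′ along the transcript, written as DNA, with the 6-base loop in capitals. They lie at chr19:9982732-9982760 on the plus strand (Fth1), chr7:45459779-45459807 on the minus strand (Ftl1), chr1:45925465-45925493 on the minus strand (Slc40a1), and on the plus strand at chr16:32631219-32631247, chr16:32631598-32631626, chr16:32631663-32631691 and chr16:32631710-32631738 (Tfrc, in the order printed).
Fth1: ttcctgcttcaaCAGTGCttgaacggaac
Ftl1: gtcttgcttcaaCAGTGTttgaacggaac
Slc40a1: caacttcagctaCAGTGTtagctaagttt
Tfrc site 1: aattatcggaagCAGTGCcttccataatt
Tfrc site 2: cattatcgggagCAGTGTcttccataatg
Tfrc site 3: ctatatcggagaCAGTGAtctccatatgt
Tfrc site 4: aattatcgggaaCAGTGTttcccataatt

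No match in the other 6 genes says only that this strict pattern is not in the transcripts searched. A match is a description of sequence, and the tables give 1 value per gene, so neither binding nor the use of one transcript over another was measured.

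Nras, the mouse gene of the switched oncogene, read 23.6 FPKM on and 16.5, 17.4 and 18.8 FPKM at 48 h, 72 h and 96 h (mean log2 change -0.41 ± 0.09, SD, n = 3; limma, Benjamini-Hochberg adjusted p = 0.128). The transgene may be a human sequence, so its reads need not be counted there and the value is a weak check of the labels. Leukocyte transcripts were abundant in every library and those of hepatocytes almost absent: all 8 hepatocyte markers were under 1 FPKM in all 4 libraries. One read was worth less FPKM in each off library than in the on library, so that the off libraries held 1.15, 1.04 and 1.19 times as many reads per FPKM at 48 h, 72 h and 96 h. Depth is otherwise unknown, and no counting interval can be given. Levels below are on a common scale set through the on column that each table repeats; changes at single times are log2((off + 1)/(on + 1)) within the table of that time.

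Of the 10 iron genes, 7 differed at least 2-fold at each time: 6 were higher off than on (Tfrc, Tfr2, Slc11a2, Steap3, Slc25a37 and Slc40a1) and Hmox1 was lower. Among all genes reaching 1 FPKM in either library, 9.85% differed by as much at 48 h, 12.4% at 72 h and 15.6% at 96 h. By direction, 5% were higher and 4.85% lower at 48 h, 6.61% and 5.76% at 72 h, and 7.39% and 8.16% at 96 h. With 1 library per group these counts carry no p, and the 3 times share the on library. The median change of the 10 genes was 1.22, 1.62 and 1.68 at 48 h, 72 h and 96 h, beside -0.14, -0.07 and -0.06 over all genes counted.

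Over the 3 off libraries, tested together against the on library, 7 of the 10 rose, 1 fell and 2 did not pass (limma, Benjamini-Hochberg adjusted p under 0.05). Of all 11960 genes tested, 27% passed, 11.8% up and 15.2% down. That is 1408 up and 1817 down, or 1738 up and 1240 down once changes are centred on their median. With libraries rescaled without globin and short RNA rows, 12125 genes were tested, with 2019 up and 1014 down. The 8 iron genes passed under both scalings, in the same directions. The median change of the 10 was 1.51 and that of all tested genes -0.08. This test counts differences between the times as spread, and the spread of the single on library is taken from the off libraries. The labels do not say that the off libraries come from separate animals, so each p-value reflects no more than the spread among these libraries, which may be technical.

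**Figure D1:**
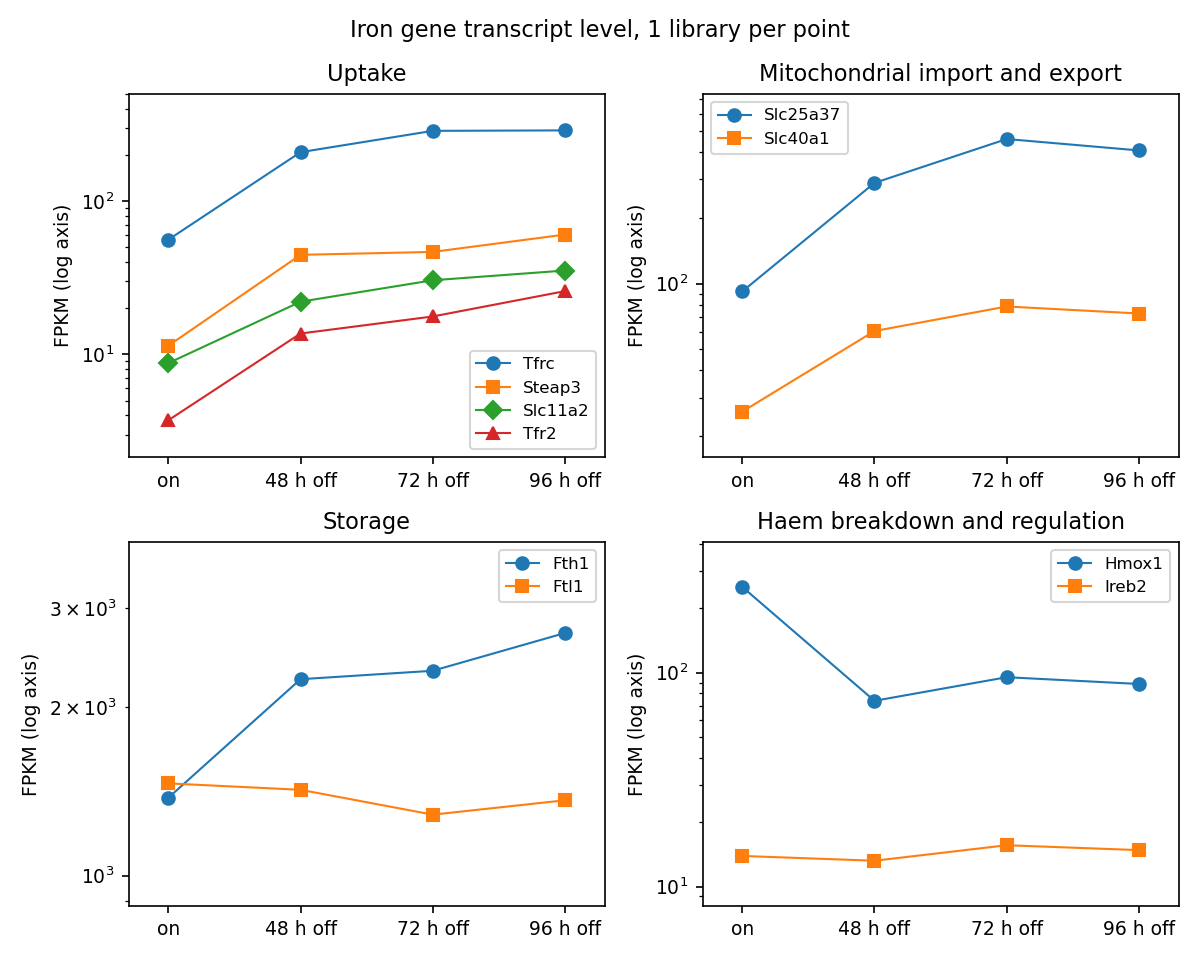
Level of each iron gene in the on library and at 48 h, 72 h and 96 h off, in FPKM on log axes, 1 library per point with lines joining libraries of the same gene. The 6 genes of the upper panels and Fth1 lie higher in all 3 off libraries than in the on library, Hmox1 lies lower, and Ftl1 and Ireb2 stay near their on level.

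Tfrc, the receptor that brings transferrin-bound iron into the cell, rose. Its level was 56.1 FPKM in the on library, then 209 FPKM at 48 h, 288 FPKM at 72 h and 290 FPKM at 96 h. All 3 off libraries lay above the on library, and the 48 h library was the lowest of them. The folds within the tables were 3.73, 5.13 and 5.17, and the mean log2 change was 2.19 ± 0.27 (SD, n = 3; limma, Benjamini-Hochberg adjusted p = 0.00159). Between 72 h and 96 h the level differed by a factor of 1.01.

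Tfr2, a second transferrin receptor that takes part in iron sensing and associates with the erythropoietin receptor in erythroid cells, had the lowest level of the 10 in the on library, while Ireb2 was lowest in each off library. Its level was 3.72 FPKM on and 13.7, 17.7 and 25.9 FPKM at 48 h, 72 h and 96 h. It was higher at each later time, with 1.89 times the 48 h level at 96 h. The mean log2 change was 2.05 ± 0.44 (SD, n = 3; limma, Benjamini-Hochberg adjusted p = 0.00311). Tfrc stayed the main receptor transcript per length: its FPKM was 15.1 times that of Tfr2 on and 15.3, 16.3 and 11.2 times at the 3 off times.

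Steap3, the endosomal enzyme that reduces ferric iron in red cell precursors, rose from 11.4 FPKM to 44.7, 46.7 and 60.6 FPKM at 48 h, 72 h and 96 h. All 3 off libraries lay above the single on library. The mean log2 change was 2.05 ± 0.23 (SD, n = 3; limma, Benjamini-Hochberg adjusted p = 0.00143), the smallest p among the 10. Slc11a2, the transporter that carries the reduced iron from endosome to cytosol, went from 8.78 FPKM to 22.1, 30.5 and 35.3 FPKM. It too was highest at 96 h, at 1.60 times its 48 h level, and its mean log2 change was 1.61 ± 0.34 (SD, n = 3; limma, Benjamini-Hochberg adjusted p = 0.00437).

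Slc25a37, or mitoferrin 1, brings iron into the mitochondria of erythroid cells. It rose from 92.0 FPKM to 289, 459 and 407 FPKM at 48 h, 72 h and 96 h. The highest level was the one at 72 h, and the 96 h level was 0.886 of that. The mean log2 change was 2.03 ± 0.35 (SD, n = 3; limma, Benjamini-Hochberg adjusted p = 0.00249). Its relative Slc25a28, or mitoferrin 2, which is made in many tissues, read 18.6 FPKM on and 15.6, 13.8 and 15.3 FPKM off (mean log2 change -0.30 ± 0.09, SD, n = 3) and did not pass the test (limma, Benjamini-Hochberg adjusted p = 0.243). The ratio of the mitoferrins was 4.95 on and 18.5, 33.3 and 26.5 off. This ratio within a library does not depend on the scaling.

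**Figure D2:**
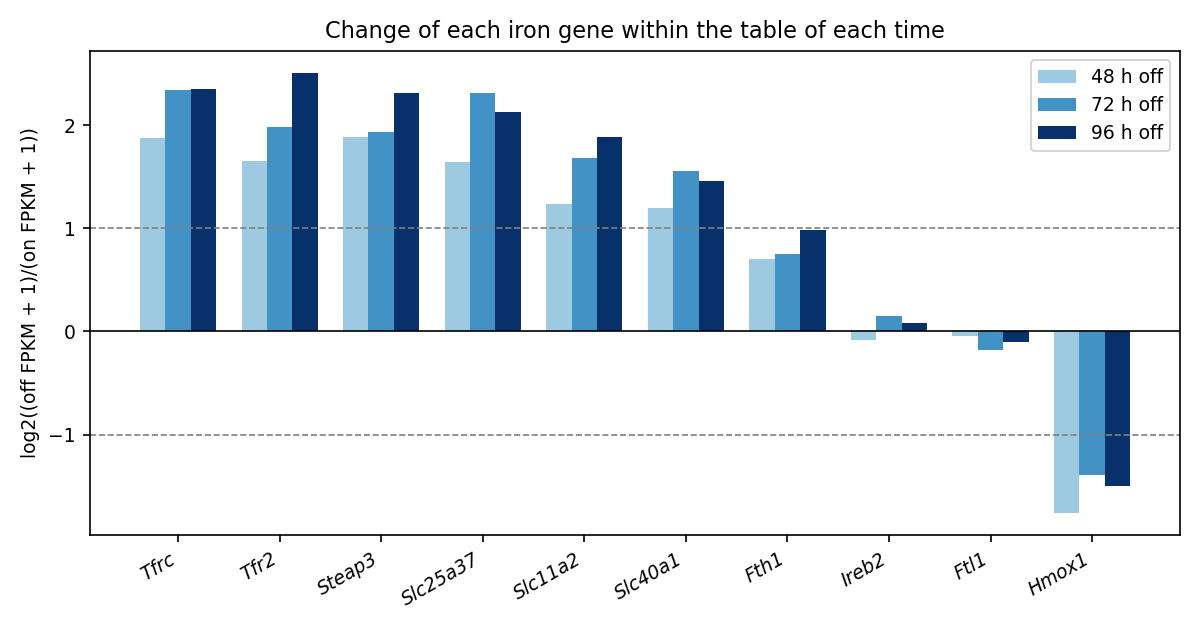
Change of each iron gene at 48 h, 72 h and 96 h, as log2((off FPKM + 1)/(on FPKM + 1)) within the table of that time, with genes ordered by their mean change and dashed lines at 2-fold. The 6 genes on the left lie above the upper line at all 3 times, Hmox1 lies below the lower line, and Fth1 reaches 0.98 at 96 h.

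Storage differed between the ferritin chains. Fth1, the heavy chain that oxidises iron as it enters the shell, read 1377 FPKM on and 2241, 2320 and 2709 FPKM at 48 h, 72 h and 96 h. All off libraries were above the on library, and the change stayed under 2-fold at each time (0.70, 0.75 and 0.98 on the log2 scale). Its mean log2 change of 0.81 ± 0.15 (SD, n = 3) passed narrowly (limma, Benjamini-Hochberg adjusted p = 0.0382) and did not pass without the 48 h library (adjusted p = 0.0559), without the 72 h library (0.125) or with no filter on low values (0.0681).

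Ftl1, the light chain that helps the iron core form, read 1461 FPKM on and 1423, 1285 and 1363 FPKM off. The off values lay within a narrow range just below the on value. The mean log2 change of -0.11 ± 0.07 (SD, n = 3) did not pass the test (limma, Benjamini-Hochberg adjusted p = 0.745). Its 95% interval, -0.62 to 0.40, leaves room for changes of either sign, and the sign was positive (0.10) when libraries were rescaled without globin and short RNA rows. The Fth1 to Ftl1 ratio, free of scaling, was 0.942 on and 1.58, 1.80 and 1.99 at 48 h, 72 h and 96 h, so the heavy chain transcript was the lesser of the pair on and the greater off. Both genes have processed pseudogenes whose reads may be assigned to them or lost, so their levels are uncertain.

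Slc40a1 encodes ferroportin, the exporter of iron. It rose from 25.9 FPKM to 60.6, 78.5 and 72.9 FPKM at 48 h, 72 h and 96 h. Every off library exceeded the on library, with the highest level at 72 h. The mean log2 change was 1.41 ± 0.19 (SD, n = 3; limma, Benjamini-Hochberg adjusted p = 0.00347). Tfrc changed by more, and its ratio to Slc40a1 was 2.17 on and 3.45, 3.67 and 3.98 off.

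Hmox1, haem oxygenase 1, which opens the haem ring and frees its iron, was the only one of the 10 that fell in this test. Its level was 252 FPKM on and 73.9, 95.3 and 88.6 FPKM at 48 h, 72 h and 96 h. The lowest level was at 48 h, and no off library came near the on library. The level on was 3.41, 2.65 and 2.85 times that at 48 h, 72 h and 96 h in the respective tables. The mean log2 change was -1.55 ± 0.19 (SD, n = 3; limma, Benjamini-Hochberg adjusted p = 0.00273). The constitutive enzyme Hmox2 read 44.1 FPKM on and 33.8, 28.8 and 28.7 FPKM off (adjusted p = 0.0793), and the Hmox1 to Hmox2 ratio was 5.73 on and 2.19, 3.32 and 3.08 off.

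Ferroportin and haem oxygenase, which work in sequence in macrophages that recycle red cells, went in opposite directions. The Hmox1 to Slc40a1 ratio was 9.76 on and 1.22 at each of the 3 off times. Both were lowest at 48 h among the off libraries and had 1.29 times that level at 72 h.

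Ireb2 encodes an iron regulatory protein that binds hairpins of the kind shown above. It read 13.9 FPKM on and 13.2, 15.6 and 14.8 FPKM off, with the on value inside the range of the off values. Its mean log2 change of 0.05 ± 0.12 (SD, n = 3) did not pass (limma, Benjamini-Hochberg adjusted p = 0.859; 95% interval -0.38 to 0.48). Iron controls this protein mainly through its breakdown, which RNA levels do not show. Aco1, the other regulatory protein, read 11.2 FPKM on and 8.97, 9.93 and 9.10 FPKM off (adjusted p = 0.352), and Fbxl5, which marks Ireb2 for breakdown when iron is ample, 19.9 FPKM on and 16.7, 17 and 11.7 FPKM off (adjusted p = 0.245).

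**Figure D3:**
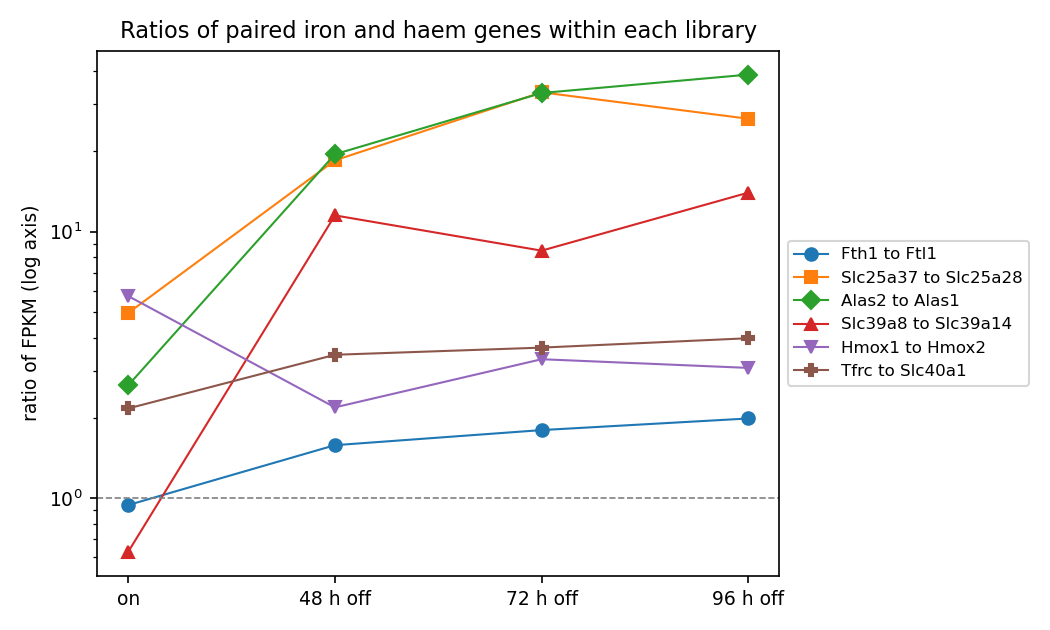
Ratio of FPKM between paired genes in each of the 4 libraries, on a log axis with a dashed line at 1; lines join libraries. Fth1 to Ftl1 crosses from 0.942 to between 1.58 and 1.99, and Alas2 to Alas1 goes from 2.65 to between 19.5 and 38.8.

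Of 60 other iron genes matched in the tables (uptake and haem transport, export and systemic control, storage and sensing, mitochondrial iron and clusters), 45 were tested: 9 rose, 4 fell and 32 did not pass, with a median change of 0.11. The share that passed, 28.9%, was near the 27% of all genes. Among uptake and haem transport genes, 2 of 14 rose and 1 fell, so that 21.4% passed. The metal transporter Slc39a8 rose from 3.47 FPKM to 10.8, 12.1 and 15.1 FPKM (limma, Benjamini-Hochberg adjusted p = 0.00244) while its relative Slc39a14, which takes up iron not bound to transferrin, fell from 5.51 FPKM to 0.938, 1.42 and 1.08 FPKM (adjusted p = 0.0017). The exporter Abcg2 rose by 1.09 ± 0.36 in log2 terms (adjusted p = 0.0209; 0.0727 with no filter). Transferrin itself, Trf, read 46.4 FPKM on and 62.7, 60.2 and 54.3 FPKM off (adjusted p = 0.222), and the haem exporter Flvcr1, listed as Mfsd7b, 5.46 FPKM on and 5.97, 5.99 and 5.91 FPKM off (adjusted p = 0.674).

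Of 7 tested genes of export and systemic control, only Bmp6 passed, a signal that raises hepcidin in the liver, at 0.512 FPKM on and 1.91, 1.90 and 2.08 FPKM off (limma, Benjamini-Hochberg adjusted p = 0.00515). The share that passed was 14.3% on this list and 16.7% among storage and sensing genes, beside 27% of all genes. Hepcidin, Hamp, was listed at 0 in all 4 libraries. The ferroxidase Cp read 2.91 FPKM on and 3.78, 3.98 and 3.13 FPKM off (adjusted p = 0.366), and Heph stayed under 0.5 FPKM. Of 6 tested storage and sensing genes, Ncoa4, the receptor that sends ferritin to lysosomes, rose from 76.3 FPKM to 114, 145 and 118 FPKM (adjusted p = 0.0457) but did not pass without the 72 h library (adjusted p = 0.266).

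Among mitochondrial iron and cluster genes, 5 of 18 rose, 3 fell and the other 10 missed the threshold, with a median of 0.16; 44.4% passed, beside 27% of all genes. The 3 that fell, named after their values were seen, were Nfu1 (-0.76), Abcb8 (-0.70) and Fdx1l (-0.61), and none of them passed without the 72 h library (limma, Benjamini-Hochberg adjusted p = 0.116, 0.152 and 0.236). Iba57, which rose by 0.91, did not pass with no filter on low values (adjusted p = 0.0752). Abcb10, a mitochondrial transporter known to stabilise mitoferrin 1, had a mean log2 change of 1.85 ± 0.26 (SD, n = 3; limma, Benjamini-Hochberg adjusted p = 0.00207), from 24.0 FPKM to 73.4, 91.3 and 106 FPKM. Abcb6 rose by 1.70 ± 0.30 (adjusted p = 0.00295), and the cluster assembly genes Isca1 and Glrx5 by 1.31 ± 0.29 (adjusted p = 0.00839) and 1.23 ± 0.17 (adjusted p = 0.00667).

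Haem synthesis, which uses the imported iron, rose in 8 of 9 genes and fell in 1, with a median of 1.79. All 9 passed, beside 27% of all genes tested, 11.8% up and 15.2% down. The list was chosen with earlier results of these data known. Uros rose by 2.78 ± 0.29, Cpox by 2.09 ± 0.20, Alas2 by 2.0 ± 0.37 and Ppox by 1.97 ± 0.35 in log2 units (SD, n = 3; limma, Benjamini-Hochberg adjusted p from 0.000836 to 0.00305). The gene that fell, named here after its value was seen, was Alas1, the housekeeping form of the first enzyme, from 52.9 FPKM to 21.5, 19.8 and 16.9 FPKM (adjusted p = 0.00278). Alas2, the erythroid form, carries an iron-responsive element and went from 140 FPKM to 418, 654 and 656 FPKM. The ratio of Alas2 to Alas1 was 2.65 on and 19.5, 33.1 and 38.8 off. Of 4 partners of Hmox1 in haem breakdown, only Blvrb passed, a share of 25% and near the 27% of all genes. Blvra, the reductase for the form of biliverdin that haem oxygenase makes, read 32.5 FPKM on and 26.6, 29.5 and 33.2 FPKM off (adjusted p = 0.654). Blvrb, a reductase of another biliverdin isomer and of flavins, rose from 109 FPKM to 409, 434 and 601 FPKM (adjusted p = 0.0019).

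Transcripts with an iron-responsive element did not share a size of change, and some did not pass the test. Of those shown above, Tfrc, Slc40a1 and Fth1 rose by 2.19, 1.41 and 0.81 on the log2 scale, and Ftl1 had a change of -0.11, which did not pass. Of 5 further genes reported to carry such elements, Alas2 and Cdc42bpa (0.94 ± 0.23; limma, Benjamini-Hochberg adjusted p = 0.0151) rose and the other 3 did not pass. The share that passed was 40%, beside 27% of all genes tested, and Alas2 is also on the haem and erythroid lists. Cdc42bpa was low, at 1.85 FPKM on and 3.71, 5.44 and 4.4 FPKM off.

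Lists of cell type markers differed in direction, with the erythroid list up and the pan-leukocyte list down in its median. The erythroid list shares Alas2 with the haem list. It was chosen with earlier results of these data known, so the count of its risers is only a description. Of all genes tested, 11.8% rose. All 20 erythroid markers rose, with a median log2 change of 2.12 (limma, Benjamini-Hochberg adjusted p under 0.05 in each), and by time the medians were 1.77, 2.25 and 2.46. The uptake genes had medians of 1.77, 1.96 and 2.33 at the same times. The summed erythroid level was 7741 FPKM on and 24118, 36080 and 38892 FPKM off. By highest level in any library, the leading markers were the globins Hbb-b2 and Hbb-b1 and the carbonic anhydrase Car2. In the on library Slc4a1, at 275 FPKM, exceeded Car2, at 201 FPKM. No erythroid marker was at 0 in any library. Nfe2, with the smallest change of the list (0.88), did not pass without the 72 h library (adjusted p = 0.108). Pan-leukocyte genes summed to 4290 FPKM on and 3106, 2468 and 1894 FPKM off: of 12, 5 fell, none rose and 7 did not pass, with a median of -0.76. None of the 5 calls held in every alternative: Coro1a, Cd53, Laptm5, Vav1 and Was had highest adjusted p-values of 0.0651, 0.0512, 0.067, 0.0769 and 0.104. Of the 12, only Ptprc had a positive mean log2 change, at 0.28, and it did not pass (limma, Benjamini-Hochberg adjusted p = 0.468). Ptprc read 67.5 FPKM on and 97.3, 91.1 and 62.3 FPKM off. The share of the 12 that passed was 41.7%, beside 27% of all genes. By their highest level in any library, the leading members were Arhgdib, Cd52 and Coro1a, all in the on library; in the off libraries Tyrobp, which did not pass (adjusted p = 0.101), exceeded Coro1a. In bulk RNA, more or fewer cells of a type cannot be told apart from more or less RNA per cell. The part of erythroid and leukocyte RNA in the changes of the iron genes was not tested.

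Markers of macrophages that recycle iron were present in all libraries, summing to 528 FPKM on and 635, 574 and 541 FPKM off. Of 16, 4 rose, 1 fell and 11 did not pass, with a median of 0.39; the 31.2% that passed was near the 27% of all genes. The 4 that rose, named after their values were seen, were Timd4 (1.62), Vcam1 (0.93), Spic (0.76) and Cd5l (0.67), and Cd68 fell (-1.04). Of these, Timd4 passed in every alternative run, Vcam1, Spic and Cd5l did not pass without the 72 h library (limma, Benjamini-Hochberg adjusted p = 0.0734, 0.0669 and 0.0999), and Cd68 did not pass with no filter on low values (adjusted p = 0.065). Timd4 was low, at 0.415 FPKM on and 3.35, 3.14 and 3.6 FPKM off, and reached the filter of 1 FPKM through the off libraries alone. By their highest level in any library, the leading markers were C1qa, at 79.6 FPKM on and 130, 103 and 107 FPKM off, Cd68, at 111 FPKM on and 66.2, 52.7 and 42.9 FPKM off, and C1qb, at 78.9 FPKM on and 97.5, 79.4 and 77.5 FPKM off. Cd68 is among them through the on library alone, since C1qc exceeded it in each off library. Slc40a1 and Hmox1 are both high in such cells, and the part of these cells in either change was not tested.

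**Figure D4:**
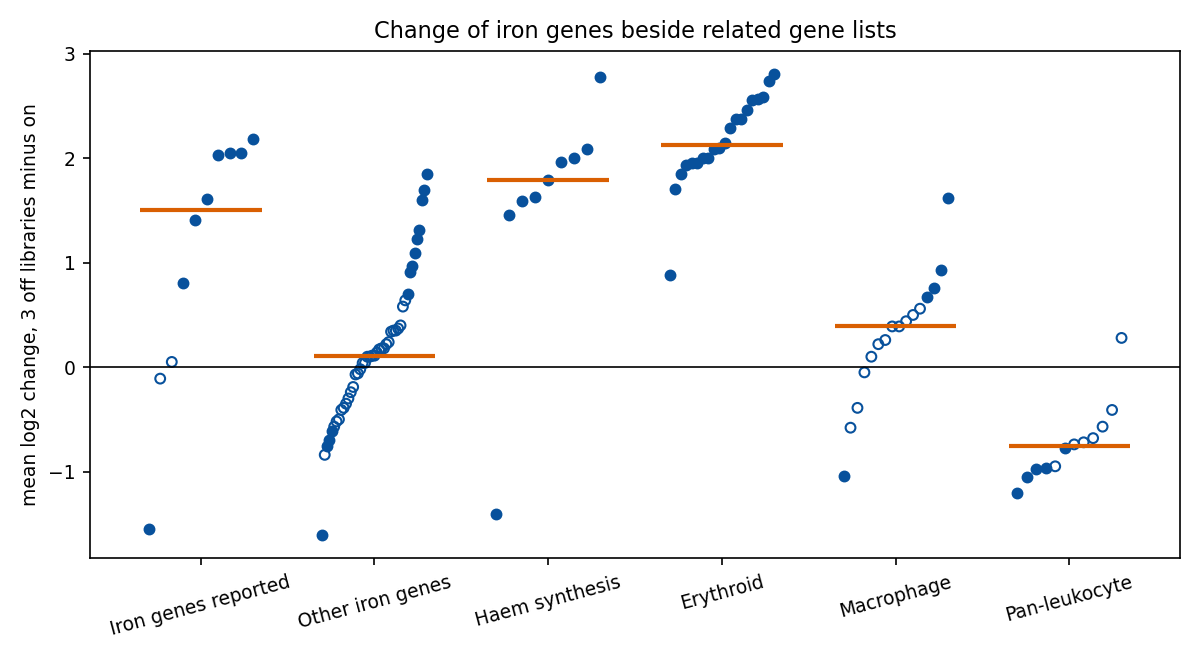
Mean log2 change over the 3 off libraries against the on library for each tested gene, by list; filled points passed limma (Benjamini-Hochberg adjusted p under 0.05), open points did not, and bars mark list medians. The iron genes reported have a median of 1.51, the other iron genes 0.11, haem synthesis 1.79, erythroid markers 2.12, macrophage markers 0.39 and pan-leukocyte genes -0.76.

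The genes nearest to 4 of the iron genes were found by the distance between their changes at the 3 times, among the 8142 genes whose 4 libraries averaged 5 FPKM or more. This likeness rests on 3 values that share the on library. Nearest to Tfrc were F830002L21Rik, Cdr2, Mylk3 and Fn3krp; Cdr2 went from 22.9 FPKM to 85.0, 122 and 122 FPKM. Nearest to Slc25a37 were Sowaha, Fhdc1, a row written 3-Mar and Fam46c, nearest to Slc40a1 Mical3, Dnajb4, Narf and Asb1, and nearest to Fth1 Cchcr1, 2210020M01Rik, Cox6b2 and Mrrf. None of these genes is on the lists used here.

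Promoter windows were held by RefSeq (GRCm38.p6) for 6 of the 10 genes, and the 250 bases before each start were searched on both strands. Of the letters AGATAA and TGATAA, bound by GATA factors, the first occurred in a window of Steap3, 45 bases before the start, and the second in a window of Tfr2. They occur in 9.99% and 7.94% of all 32851 windows. These shares are per window, and a gene such as Tfr2 has several windows, so they are not shares of genes. CCACACCC, a pattern of erythroid CACC-box factors, occurred in another Tfr2 window and in 3.20% of all windows. TGACGT, the core of the cyclic AMP response element, occurred in a window of Tfrc, 213 bases before the start, and in 6.47% of all windows. The E-box CACGTG and the antioxidant response core TGACTCAGC, held by 6.02% and 0.39% of all windows, had no match in the windows of these 6 genes. Those of the 10 without a window, not named here, were not searched. A match is a description, and no match says only that these letters are not in the window.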

How the data were processed

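RNA was sequenced from 4 libraries, 1 per group. The authors deposited FPKM values for 23235 genes in 4 tables, made with TopHat2 2.0.4 and Cuffdiff on mm9, per the submitters' processing notes. Annotation and strandedness: not given in the sources used here. Columns for 0 hours were read as the on library, since the labels start doxycycline at time 0. Each table was scaled separately: its on column matched the common scale (the mean of the 3 on columns) after 1 factor, within 0.1% for 99.9% of values in the tables of 1 time. Off columns were multiplied by that factor.

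From these, log2(FPKM + 1) was tested with limma 3.58.1 (statmod 1.5.0, R 4.3.3; robust eBayes with a trend, 2 residual degrees of freedom, Benjamini-Hochberg adjustment at 0.05) over 11960 genes reaching 1 FPKM, checked first on simulated data. A change on this scale understates that of low genes. The simulated data had the same spread for all genes and libraries and no trend over time. They therefore cannot check the spread assumed for the on library. An exact 0 can be a failed estimate and is given as listed. Entries of the gene lists were matched by symbol, or by RefSeq synonym: 155 of 156 matched. Members and lists were chosen with earlier results of these data known. All 10 members are named; of other lists, up to 4 genes with the largest change among those that passed, 12 regulators and transporters whatever their value, and up to 3 markers of highest level. Alternatives were other pseudocounts, filters and scalings, the authors' combined column, and leaving out each off library.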

Additional observations from a re-analysis of the deposited data

Results flagged for a closer look

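Ireb2 changed sign between the times: its log2 change was -0.08 at 48 h, 0.15 at 72 h and 0.08 at 96 h, each from 1 off library against the same on library. The difference between the times was not tested. With the median change of all genes set to 0 the value at 48 h was also 0.08.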

How the results depend on the processing

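With 1 library per group, no result has a replicate check within its group, and depth is known only relative to the on library. At each time 7 iron genes were at least 2-fold changed, with these exceptions: 6 were at 48 h with a pseudocount of 5 FPKM, which took Slc11a2 to 0.98, and 8 were at 96 h, with Fth1 added, once the median change was set to 0 or globin and short RNA rows were left out of the scaling. The limma test passed 8 iron genes, or 7, losing Fth1, with no filter on low values, without the 48 h library and without the 72 h library. The other 7 passed in every alternative run. Ftl1 turned from -0.11 to 0.10 (adjusted p = 0.742) when rescaled without globin and short RNA rows, a step that adds 0.22, 0.23 and 0.19 to every log2 change at 48 h, 72 h and 96 h. Of 150 changes of single genes at single times under alternatives, 25 moved by more than the SD of the off libraries. The authors' combined column gave 2.24 for Tfrc, 0.85 for Fth1 and -1.51 for Hmox1. Over all genes, calls numbered 3225, from 2300 to 4236 with 1 off library left out. At 48 h the split of 587 higher and 569 lower became 811 and 395 with the median set to 0. No paired analysis was possible because each group holds 1 library.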

Other observations

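A list of genes known as targets of the factors Nrf2 (Nfe2l2) and Bach1, which also act on Hmox1, moved in both directions. Of its 11 genes, factors included, 3 rose, 1 fell and 7 did not pass (limma, Benjamini-Hochberg adjusted p under 0.05), with a median of 0.22; 36.4% passed, beside 27% of all genes. Gclm, the helper subunit of glutathione synthesis, went from 36.4 FPKM on to 101, 142 and 161 FPKM at 48 h, 72 h and 96 h (adjusted p = 0.00322). The quinone reductase Nqo1 went from 3.46 FPKM to 8.96, 12.9 and 17.7 FPKM (adjusted p = 0.0085), and Gclc rose by 1.01 ± 0.29 on the log2 scale (adjusted p = 0.0189; 0.0621 with no filter). Glutathione reductase, Gsr, which phagocytes hold in large amounts, fell from 263 FPKM to 99.3, 99.3 and 64.1 FPKM, by 1.60 on the log2 scale (adjusted p = 0.00591), beside a fall of Hmox1 by 1.55. Bach1, the haem-sensing repressor of Hmox1, read 13.7 FPKM on and 13.4, 14.9 and 11.5 FPKM off (adjusted p = 0.87).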
